A study of Mus musculus with 9 samples.

Results

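Ap1g1, the gene for the gamma-1 subunit of adaptor protein complex 1 (AP-1), was followed in RNA recovered with Roquin antibodies, together with 9 other subunit genes of the clathrin adaptors: Ap1g2, Ap1b1, Ap1m1, Ap1s1, Ap2a1, Ap2b1, Ap2m1, Ap3b1 and Ap3d1. These 10 genes were chosen by symbol among the 20467 genes of the deposited table, and all 10 had reads in all 9 libraries and passed the filter on low counts. Ap1g1 was picked with its high level in the Roquin precipitates known, so its values there are a description and carry no test. The other 9 entered as relatives of Ap1g1 in the same protein family.

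The libraries came from RAW264.7, an established mouse macrophage cell line. All cells had been treated with lipopolysaccharide (LPS), a bacterial cell wall component, at 100 ng/ml for 2 h, so no untreated group was compared. In the Roquin IP group (3 libraries) RNA was isolated after immunoprecipitation with rabbit polyclonal antibodies (Bethyl, 514A and 515A) on protein A/G beads. In the control IP group (3 libraries) the beads carried no antibody, and in the input group (3 libraries) RNA was isolated from the lysate before precipitation. The design text gives the 3 libraries of each group as biological replicates of this 1 line. Since the control held no antibody, RNA that reached the beads through any other protein caught by the antibodies cannot be told apart from RNA on Roquin.

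Adaptor protein complexes are heterotetramers of 2 large subunits, 1 medium (mu) subunit and 1 small (sigma) subunit. They pick cargo proteins by short sorting signals in the cargo's cytoplasmic tail, and AP-1 and AP-2 also recruit clathrin, the coat protein of many transport vesicles. AP-1 works at the trans-Golgi network and endosomes, AP-2 at the plasma membrane in endocytosis, and AP-3 on the route to lysosomes and related organelles. In macrophages these routes carry lysosomal enzymes, surface receptors and engulfed material. Roquin-1 and Roquin-2 (genes Rc3h1 and Rc3h2) recognise stem-loops in their target mRNAs, among them the constitutive decay element (CDE) of the Tnf 3' untranslated region (3' UTR), whose short stem closes a loop of pyrimidine, purine and pyrimidine, and they bring the mRNA to the deadenylation machinery.

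The sequences below show what the adaptor mRNAs hold in place of, or beside, that element. In the lines for Tnf, Ap3d1, Ap2m1 and Ap3b1, capitals mark the 9-base core of the element, which is 3 stem bases, the 3-base loop and 3 stem bases. In the line for Ap1g1, capitals mark a whole stem-loop of a wider pattern.
Tnf 3' UTR: catgttTTCTGTGAAaacgga
Ap1g1 3' UTR: acgTTGAATGTACTATGTATGTTCAGgta
Ap3d1 coding, near the start: cagtgcTTCCATGAAggtacc
Ap3d1 coding, farther on: gccatcTTCCATGAAgaagag
Ap2m1 coding: ccccatTTCCATGAActttga
Ap3b1 coding: aagaacTTCTATGAAtctgag
All are transcript strand, 5′ to 3′, from the GENCODE M21 annotation of GRCm38. The sources used here do not name the genome build of the deposited counts.

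Ap1g1 is at chr8:109778554-109864204 on the plus strand in GRCm38. Its longest 3' UTR had 4009 bases, and 8.11% of the 9429 tested genes with an annotated 3' UTR had one as long or longer. The core was searched on both strands as TTCCACGAA, TTCCATGAA, TTCCGCGAA, TTCCGTGAA, TTCTACGAA, TTCTATGAA, TTCTGCGAA and TTCTGTGAA. No spelling of the core is the reverse complement of another, so matches on the 2 strands do not coincide. No annotated transcript of Ap1g1 held the core on its own strand, and none of the 10 genes held it in its longest 3' UTR on either strand. Of all 9429 UTRs searched, 6.02% held the core, 4.40% held it on the opposite strand, and 19.5% of the 765 UTRs at least as long as that of Ap1g1 held it. A missing core says only that these letters are not in the annotated UTRs.

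In coding sequence the core had 2 matches in Ap3d1, 1 in Ap2m1 and 1 in Ap3b1, and 5.29% of the tested genes had at least 1. The matches were at chr10:80730020-80730028 and chr10:80715931-80715939 (minus strand, Ap3d1), chr16:20542735-20542743 (plus strand, Ap2m1) and chr13:94440285-94440293 (plus strand, Ap3b1). Counted outward from the loop, the stem of the Ap3d1 matches had 4 and 5 consecutive base pairs, and those of Ap2m1 and Ap3b1 had 3 each. The Tnf core, at chr17:35199588-35199596 on the minus strand, had 7. In the authors' deposited table Ap3d1 was the member with a predicted element, of the class for coding sequence, and the other 9, Ap1g1 included, were in the class without one.

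A wider pattern was then searched, chosen with the high level of Ap1g1 known: the same kind of 3-base loop closed by at least 7 consecutive pairs, Watson-Crick or G-T, of any sequence. Ap1g1 held 1 such stem-loop in its 3' UTR, the one printed above, at chr8:109861638-109861660 (plus strand), starting 1443 bases after the stop codon. Its loop was TAT, closed by a C-G pair like the core of the element, and its stem had 10 pairs, of which 3 were G-T. None of the other 9 genes held the pattern in the longest 3' UTR. A stem of at least 7 pairs was found in 24.9% of all tested UTRs and a stem of at least 10 in 2.78%, or in 11.6% of the UTRs as long as that of Ap1g1. The match is a description of letters in the annotated UTR and says nothing of binding.

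Ap1g1 stood far above both backgrounds in the Roquin IP. Its raw counts were 15876, 29797 and 54240 in the Roquin IP libraries 1, 2 and 3, then 620, 774 and 1861 in the control IP and 476, 348 and 383 in the input. From here on a level is in CPM, counts per 1e+06 reads, where the library size is scaled by TMM factors to correct for a few RNAs that take many reads. Ap1g1 had 6647, 3760.3 and 5239 CPM in the Roquin IP, 188, 151 and 159.7 CPM in the control IP and 194, 137 and 189.6 CPM in the input. The Roquin IP libraries lay above both backgrounds (as for 10.7% of all genes over control IP and 16.5% over input, from which nothing is read for this gene), and control IP and input overlapped with each other. The means were 5215 ± 1443 CPM (SD, n = 3), 167 ± 19.5 and 173 ± 31.3.

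The fitted log2 fold change of Ap1g1 was 4.97 (standard error 0.35) in Roquin IP over control IP, or 31.3-fold with a 95% interval from 18.7 to 52.3. Over input it was 4.91 (standard error 0.35), or 30.1-fold. Both folds share the Roquin IP libraries. Among the 9567 genes tested, Ap1g1 ranked 29th over control IP by log2 fold change and 30th over input. Libraries of the same number differed 35.3-, 24.8- and 32.8-fold between Roquin IP and control IP. For comparison, the log2 fold change over control IP was 8.87 for Nfkbid, a nuclear inhibitor of NF-kappaB, 7.57 for Tnf, 6.63 for Rc3h1 and 5.45 for Rc3h2.

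In the authors' deposited table the ratio of Roquin IP to control IP for Ap1g1 was 31.68. This ratio ranked 37th among the 12988 finite ratios there and 31st among the 12832 of genes without a predicted element.

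**Figure D1:**
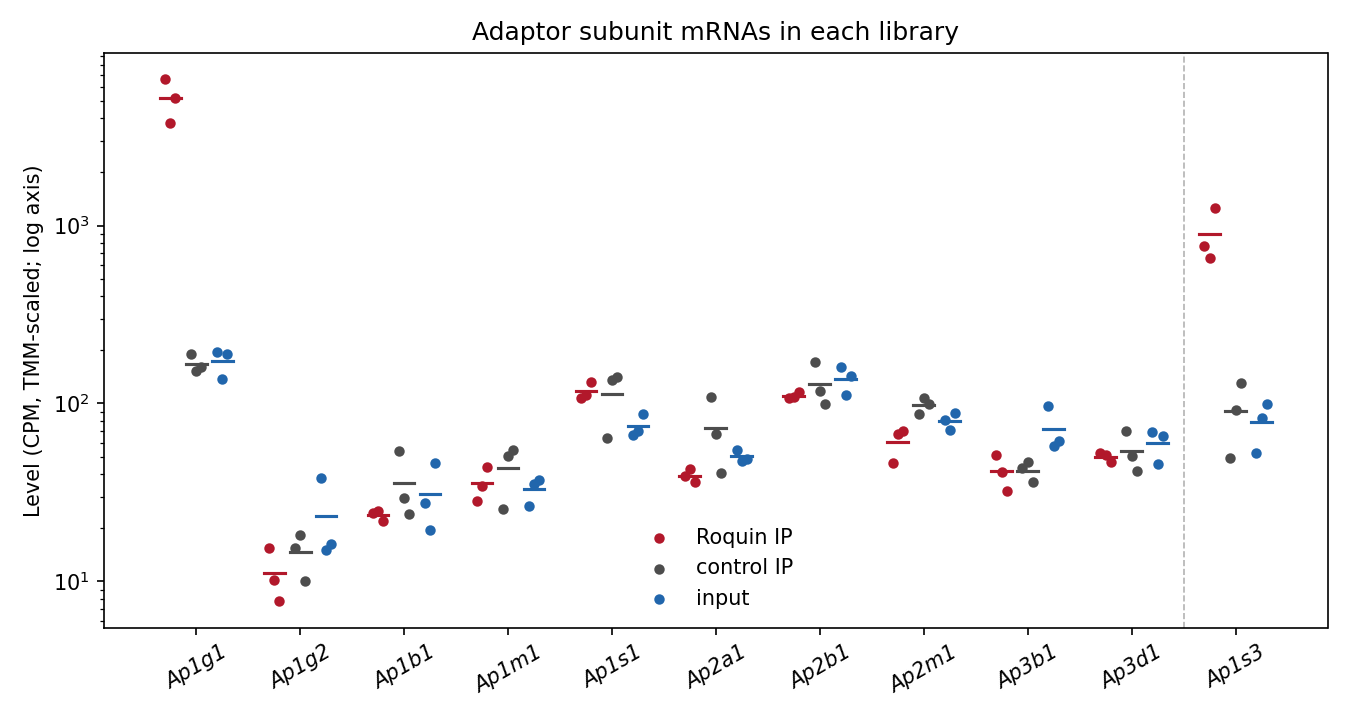
Level of each of the 10 adaptor subunit mRNAs, and of Ap1s3 to the right of the dashed line, in CPM (counts per 1e+06 reads, TMM-scaled, log axis); points are libraries and short bars are means of 3. The Roquin IP points of Ap1g1 lie between 3760.3 and 6647 CPM, and those of the other 9 genes left of the line lie among or near their backgrounds.

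None of the other AP-1 members passed the test against either background. Ap1b1 codes for the beta-1 large subunit, which binds clathrin. It had 24.3, 24.9 and 21.9 CPM in the Roquin IP, 53.8, 29.5 and 23.9 in the control IP and 27.6, 19.3 and 46.0 in the input. The 3 groups overlapped, with control IP library 1 the highest. The log2 fold change over control IP was -0.58 (standard error 0.38, adjusted p = 0.686).

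Ap1m1, whose mu-1A protein reads tyrosine-based sorting signals, had 28.5, 34.6 and 43.9 CPM in the Roquin IP, 25.5, 50.5 and 54.8 in the control IP and 26.4, 35.1 and 37.1 in the input. Its groups overlapped too, and the log2 fold change over control IP was -0.29 (standard error 0.33, adjusted p = 0.819). Ap1s1, for the small sigma-1A subunit, had 108, 111 and 132 CPM in the Roquin IP, 63.9, 135 and 140.4 in the control IP and 66.3, 69.9 and 87.1 in the input. All 3 Roquin IP libraries of Ap1s1 were above the input, as for 16.5% of all genes, and they overlapped with the control IP. Its log2 fold change was 0.04 (standard error 0.31, adjusted p = 0.972) over control IP and 0.65 (standard error 0.31, adjusted p = 0.230) over input.

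Ap1g2 codes for gamma-2, the paralog that can stand in the place of gamma-1. Its levels were 15.5, 10.2 and 7.73 CPM in the Roquin IP, 15.5, 18.2 and 10.1 in the control IP and 38.2, 15.0 and 16.3 in the input. The groups overlapped, and input library 1 was the highest. The log2 fold change was -0.41 (standard error 0.44, adjusted p = 0.811) over control IP and -1.09 (standard error 0.45, adjusted p = 0.160) over input. The gamma paralogs lay apart in the Roquin IP. Reads of Ap1g1 per read of Ap1g2 were 429, 368 and 678 there, against 12.2, 8.32 and 15.8 in the control IP and 5.06, 9.16 and 11.6 in the input. These ratios are taken within a library, so the scaling between libraries does not enter them.

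Of the AP-2 subunits, Ap2a1 codes for the large alpha subunit, which binds membrane phosphoinositides. It had 38.9, 42.9 and 36.0 CPM in the Roquin IP, 109, 67.7 and 40.7 in the control IP and 54.5, 47.8 and 49.0 in the input. The Roquin IP libraries were all below the input and overlapped with control IP library 3. The log2 fold change over control IP was -0.87 (standard error 0.33, adjusted p = 0.304). Ap2m1, for the mu-2 subunit that reads tyrosine-based signals in endocytosis, had 46.1, 67.0 and 70.2 CPM in the Roquin IP, 87.3, 108 and 98.9 in the control IP and 80.9, 70.7 and 88.1 in the input. Its Roquin IP libraries were below every library of both backgrounds (8.0% of all genes were below the control IP), by a log2 fold change of -0.68 (standard error 0.26, adjusted p = 0.330) over control IP. Ap2b1, for the clathrin-binding beta-2 subunit, ranged from 107 to 117 CPM in the Roquin IP, 99.5 to 170.3 in the control IP and 112 to 159 in the input.

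The AP-3 members were Ap3b1, for the beta-3A subunit whose loss causes the pearl coat colour of mice, and Ap3d1, for the delta subunit whose loss causes mocha. Ap3b1 had 51.5, 41.4 and 32.4 CPM in the Roquin IP, 43.2, 46.8 and 36.1 in the control IP and 97.2, 58.0 and 61.4 in the input. Both kinds of precipitate lay below the input without overlap, as 14.4% of all genes did in the Roquin IP and 10.8% in the control IP, and they overlapped with each other. The log2 fold change over input was -0.80 in Roquin IP (standard error 0.30, adjusted p = 0.129) and -0.78 in control IP (standard error 0.30, adjusted p = 0.167). With the replicate number as a block, both passed the threshold, with -0.79 (adjusted p = 0.0299) and -0.75 (adjusted p = 0.0494), where 8.04% and 5.78% of all genes were called lower. Ap3d1, the member with a predicted coding element, had 52.8, 51.1 and 46.7 CPM in the Roquin IP, 69.6, 50.9 and 41.5 in the control IP and 69.5, 45.8 and 65.4 in the input. Its groups overlapped, and the log2 fold change over control IP was -0.10 (standard error 0.29, adjusted p = 0.933).

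Counted together, 1 of the 10 genes, Ap1g1, was called higher against the control IP by edgeR's quasi-likelihood test in the Roquin IP, where 3.76% of all genes were, and none was called lower, as was true of 0.0% of all genes. Since Ap1g1 was chosen on this comparison, nothing is read from that 1. For the other 9 the log2 fold changes ran from -0.87 to 0.04 with a median of -0.29, beside -0.12 for all genes, and the highest upper bound of their 95% intervals was 0.70, or 1.63-fold. At an unadjusted p under 0.05, none of these 9 was higher (759 of all 9567 genes were). By the same rule 2 were lower (Ap2a1 and Ap2m1), as were 204 of all genes, and DESeq2 called none of the 9. Whether the other 9 were called depended on the scaling. With library totals in place of TMM, 8 of the 9 (all but Ap1s1) were called lower. The median of all genes moved from -0.12 to -0.96. Calls over all genes went from 360 higher and 0 lower to 257 higher and 3694 lower. Ap1g1 had a log2 fold change of 4.15 under that scaling.

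Over input, Ap1g1 was the 1 gene of 10 called higher (5.45% of all genes were), and none was called lower (2.79% were). The same Roquin IP libraries enter here, so nothing is read from that 1 either. The other 9 ran from -1.09 for Ap1g2 to 0.65 for Ap1s1, with a median of -0.36 beside -0.01 for all genes. At an unadjusted p under 0.05, 2 of these 9 were lower (Ap1g2 and Ap3b1), as were 1025 of all genes. None of the 9 was higher (1157 of all genes were), and DESeq2 called none of them. All Roquin IP libraries lay below all input libraries for 3 of the 9 (Ap2a1, Ap2m1 and Ap3b1), and 14.4% of all genes did so. With library totals as scaling, 7 of the 9 were called lower, as were 2659 of all 9567 genes.

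**Figure D2:**
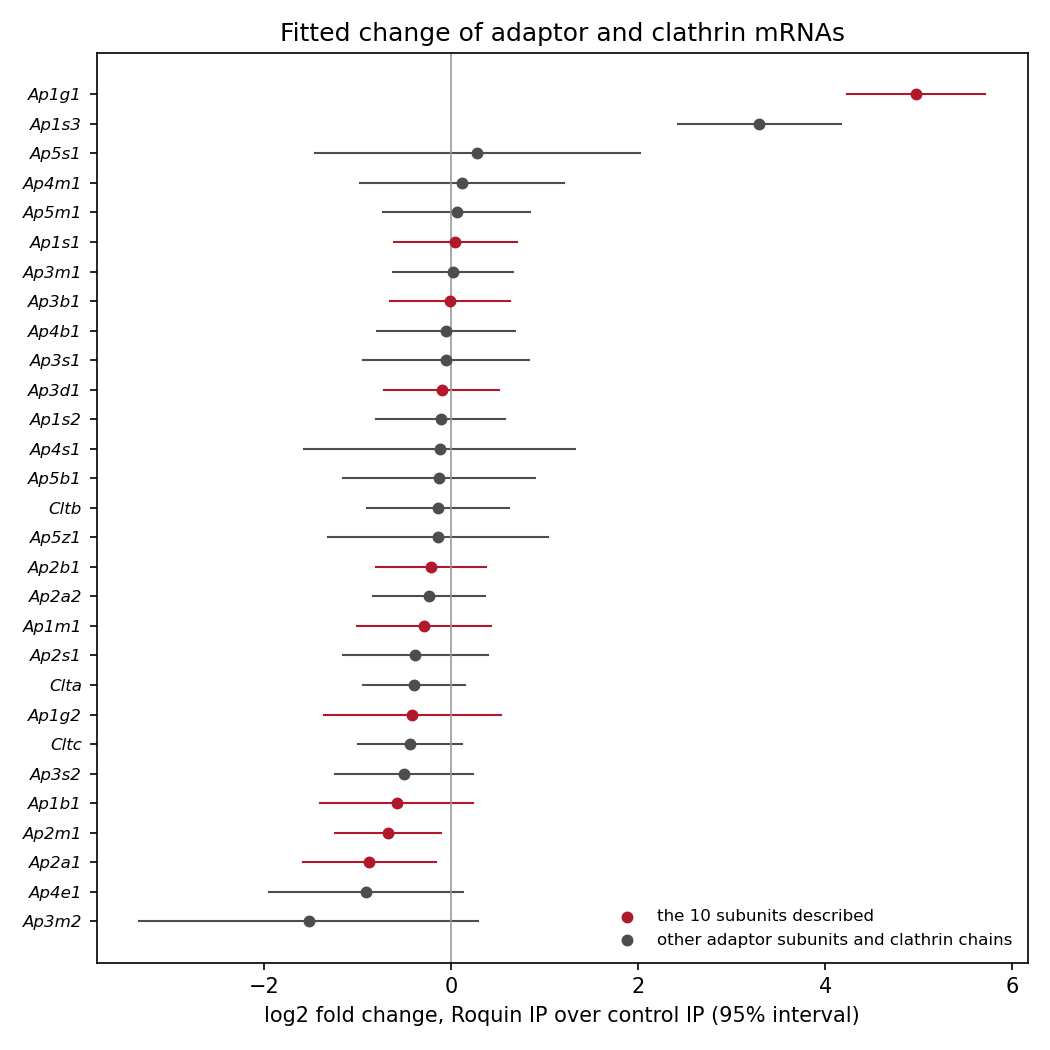
Fitted log2 fold change of Roquin IP over control IP for 29 tested adaptor subunits and clathrin chains, with 95% intervals (points, fitted values from all 9 libraries). Ap1g1 at 4.97 and Ap1s3 at 3.29 stand to the right; the upper bounds of the other 9 chosen subunits reach at most 0.70.

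No adaptor mRNA of the 10 passed the test between beads alone and the lysate. In control IP over input, a comparison that holds no Roquin library, Ap1g1 had a log2 fold change of -0.06 (standard error 0.29, adjusted p = 0.939), or 0.960-fold with a 95% interval from 0.619 to 1.49. None of the 10 genes was called higher (0.815% of all genes were) or lower (0.303% were), and DESeq2 called none. At an unadjusted p under 0.05, 1 was lower (Ap3b1) and none higher, where 912 of all 9567 genes were lower and 1036 higher. Their log2 fold changes ran from -0.78 to 0.61, with a median of 0.07 beside 0.02 for all genes.

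Levels of different genes can be compared per length, here in CPM per kilobase of the union of annotated exons. In the input Ap1s1 was the highest at 33.9 ± 5.08 CPM per kilobase, followed by Ap1g1 at 22.6 ± 4.08, Ap2m1 at 19.4 ± 2.13, Ap3b1 at 15.9 ± 4.77 and Ap2b1 at 15.7 ± 2.76 (SD, n = 3 each). The neighbours from Ap1g1 to Ap2b1 overlapped between libraries. Then came Ap2a1 at 11.7 and Ap1m1 at 10.3, which overlapped, and Ap3d1 at 6.76, Ap1b1 at 6.26 and Ap1g2 at 5.56, which also did. Ap1s1 lay above Ap1g1, Ap2b1 above Ap2a1, and Ap1m1 above Ap3d1 without overlap. With the longest transcript as the length, Ap2m1 (27.2) stood above Ap1g1 (25.15), Ap2b1 (24.5) above Ap3b1 (18.0), Ap1m1 (15.8) above Ap2a1 (14.6) and Ap1g2 (7.65) above Ap1b1 (7.59), so the order of these neighbours depends on the length used. In the Roquin IP Ap1g1 was at 679 ± 188 CPM per kilobase, Ap1s1 at 53.2 ± 5.89 and the other 8 between 2.67 and 14.8.

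Among the other adaptor subunits and clathrin chains, Ap1s3, for the sigma-1C small subunit of AP-1, was also high in the Roquin IP. Its levels were 766, 661 and 1256 CPM there, 49.6, 91.9 and 130.8 in the control IP and 52.8, 82.9 and 99.0 in the input. Every Roquin IP library was above every library of both backgrounds, which overlapped with each other. Of all genes, 10.7% lay above the control IP in this way and 16.5% above the input. Ap1s3 rose 9.81-fold over control IP (log2 fold change 3.29, standard error 0.41, adjusted p = 9.89e-05) and 11.4-fold over input (3.52, standard error 0.41, adjusted p = 6.99e-05), and in all 15 alternatives of each comparison it was called. Its paralogs for sigma-1A and sigma-1B, Ap1s1 and Ap1s2, had log2 fold changes of 0.04 and -0.11 over control IP (adjusted p = 0.972 and 0.934). In the authors' deposited table Ap1s3 had a ratio of 10.01 with a p-value of 0.002131 and no predicted element. Its longest 3' UTR, of 2291 bases, held neither the core nor the wider pattern. That of Ap1s2 held 1 core, with a stem of 3 pairs against 7 for Tnf. Ap2a2 held 2 cores there (4 and 3 pairs) and Ap5m1 held 1 (4 pairs), where 6.02% of all UTRs searched held the core. Ap1s2, Ap2a2 and Ap5m1 did not pass the test over control IP. The lists that hold Ap1s3 and the partners below were chosen with earlier results of these data known. Their p-values are therefore not independent tests of these genes.

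Ap1g1 and Ap1s3 made up most AP-1 reads in the Roquin IP, with reads not divided by gene length. Of the reads of the 8 AP-1 subunit genes, Ap1g1 took 87.4, 81.3 and 78.0% in the Roquin IP, 45.3, 30.3 and 29.7% in the control IP and 45.3, 35.0 and 38.3% in the input. Its Roquin IP shares were above all others, at 82.2 ± 4.78% (SD, n = 3) against 35.1 ± 8.83% and 39.5 ± 5.27%. Ap1s3 took 10.1 to 18.7% in the Roquin IP, 11.9 to 24.3% in the control IP and 12.4 to 21.1% in the input, which overlapped. The other 6 AP-1 genes together took 3.40 ± 0.947% in the Roquin IP, against 46.7 ± 4.28% in the control IP and 42.7 ± 1.14% in the input. These shares follow from the reads that chose Ap1g1 and were not tested.

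**Figure D3:**
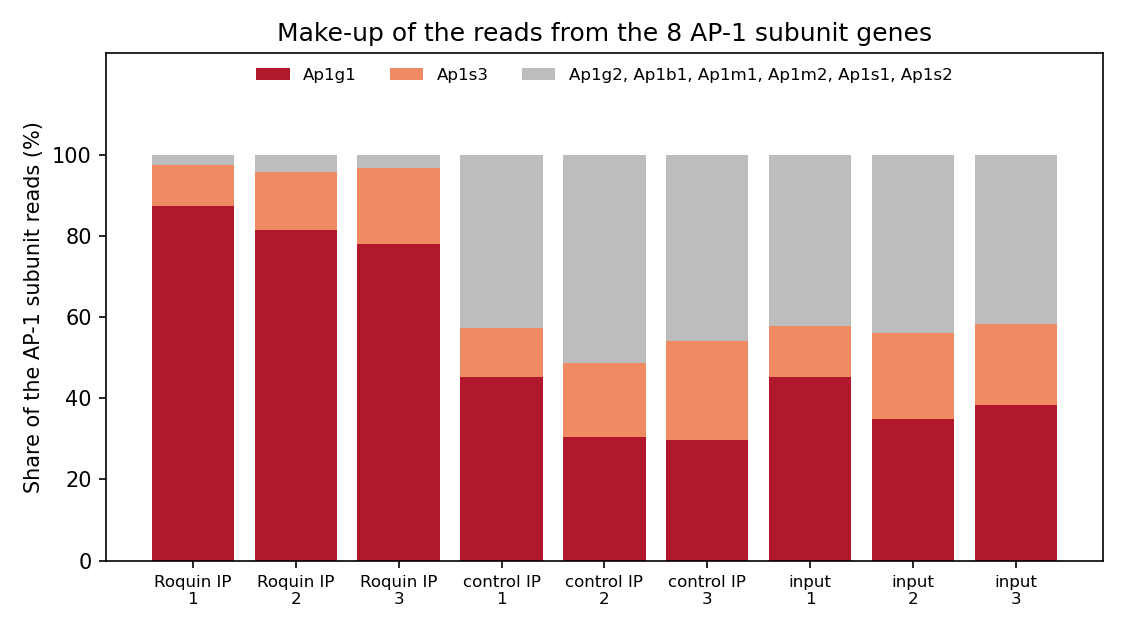
Share (%) of the reads of the 8 AP-1 subunit genes that came from Ap1g1, from Ap1s3 and from the other 6 together, in each library (1 bar per library). Ap1g1 fills 78.0 to 87.4% of the Roquin IP bars and at most 45.3% of the others.

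Of 21 other subunit and clathrin genes in the table, 19 were tested. Ap1m2 (0 to 3 reads per library) and Ap3b2 (1 read in all) were not. Over control IP, Ap1s3 was the 1 called higher (3.76% of all genes were) and none was called lower (0.0% were), with a median log2 fold change of -0.14 beside -0.12 for all genes. The other 18 ran from -1.52 for Ap3m2 (adjusted p = 0.631) to 0.28 for Ap5s1 (adjusted p = 0.935). None of them was at an unadjusted p under 0.05, where 759 of all genes were higher and 204 lower. DESeq2 called none of the 18. With library totals as scaling, 8 of the 18 were called lower (Ap1s2, Ap2a2, Ap2s1, Ap3m2, Ap3s2, Ap4e1, Clta and Cltc), where 3694 of all 9567 genes were.

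Over input, 1 of the 19 was called lower (2.79% of all genes were): Cltc, the clathrin heavy chain. Cltc had 299.8, 297 and 309.7 CPM in the Roquin IP, 515, 371 and 345 in the control IP and 803, 601 and 691 in the input. The Roquin IP libraries were the lowest and the input the highest, without overlap between any of the groups. Of all genes, 8.0% lay below the control IP and 14.4% below the input in the Roquin IP. In the control IP 10.8% lay below the input. Cltc fell 2.31-fold over input (log2 fold change -1.21, standard error 0.26, adjusted p = 0.0120), and leaving out Roquin IP library 1, 2 or 3 ended the call (adjusted p = 0.0579, 0.0508 and 0.0533) with the log2 fold change at -1.20, -1.19 and -1.23. With the replicate block, under which 8.04% of all genes were called lower, 2 AP-3 subunits were as well, Ap3m1 (mu-3A, -0.98, adjusted p = 0.00757) and Ap3s1 (sigma-3A, -1.21, adjusted p = 0.0372). DESeq2 called Cltc, Ap3m1 and Ap3s1 lower too, where it called 542 of all genes lower. Over the 15 alternatives Ap3m1 was called in 5 and Ap3s1 in 3.

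In control IP over input none of the 19 was called. At an unadjusted p under 0.05, 4 were higher and 4 lower, where 1036 and 912 of all 9567 genes were. DESeq2 called 2 higher and 2 lower, where it called 405 and 401 of all genes. The replicate block called 3 higher (Ap2s1, Ap3s2 and Clta; 6.65% of all genes were) and 2 lower (Ap3m1 and Cltc, where 5.78% of all genes were). Ap3b1, Ap3m1 and Cltc were thus called lower than the input, under the block, in beads without antibody also.

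Among genes of the AP-1 route, 2 rose in the Roquin IP by less than Ap1g1. Gga3, a monomeric clathrin adaptor of the trans-Golgi network with an ear domain like that of gamma-1, had 128, 91.1 and 83.2 CPM in the Roquin IP, 21.9, 30.7 and 21.5 in the control IP and 31.3, 22.9 and 32.7 in the input. Rabep1, the Rab5 effector rabaptin-5 that binds the gamma-1 ear, had 180.0, 132 and 199 CPM in the Roquin IP, 57.5, 46.8 and 56.8 in the control IP and 93.1, 56.4 and 77.7 in the input. For both genes the Roquin IP libraries were above all others. Of the 23 tested partners, 4 lay above the control IP in this way and 7 above the input. Of all genes, 10.7% lay above the control IP and 16.5% above the input. Gga3 rose 4.06-fold over control IP (log2 fold change 2.02, standard error 0.30, adjusted p = 0.000634) and 3.47-fold over input (adjusted p = 0.00195). Rabep1 rose 3.17-fold over control IP (1.66, standard error 0.29, adjusted p = 0.00207) and 2.25-fold over input (adjusted p = 0.0214), the latter lost with library totals as scaling (adjusted p = 0.306) or without Roquin IP library 1 or 3 or input library 2 or 3 (0.0549 to 0.104).

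These were 2 of the 23 tested AP-1 and trans-Golgi partners called higher over control IP (3.76% of all genes were), and none was called lower (0.0% were). With library totals as scaling, the same 2 were called higher and 11 of the 23 lower, where 257 and 3694 of all 9567 genes were. The median log2 fold change of the 23 was -0.14 beside -0.12 for all genes, and the replicate block, which called 5.52% of all genes higher, added M6pr, the cation-dependent mannose 6-phosphate receptor. Over input, 3 of the 23 were called higher (5.45% of all genes were), Pi4k2a being the third, and none was called lower (2.79% were). With library totals, 1 was called higher and 5 lower, where 259 and 2659 of all 9567 genes were. Pi4k2a makes the phosphoinositide that recruits AP-1, and its log2 fold change was 1.57 (standard error 0.37, adjusted p = 0.0194) over input and 0.66 (adjusted p = 0.618) over control IP. Leaving out Roquin IP library 1 or input library 1 or 2 ended its call over input (adjusted p = 0.0999, 0.0726 and 0.0895), as did library totals as scaling (0.107). In control IP over input none of the 23 was called. At an unadjusted p under 0.05, 2 were higher and 0 lower, where 1036 and 912 of all genes were. DESeq2 called none of the 23, and the replicate block called 1 higher, Arf1 (6.65% of all genes were).

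Both Gga3 and Rabep1 held the wider stem-loop pattern in the longest 3' UTR, and neither held the core. The longest stem of each is printed here, with the stem-loop in capitals.
Gga3 3' UTR: tcaGTACAGCTGTACTGGTTGTACcac
Rabep1 3' UTR: agtGGTGTTGGCTTACAGCTGGTACCcaa
The Gga3 stem had 9 pairs (3 of them G-T), at chr11:115584305-115584325 on the minus strand. The Rabep1 stem had 10 pairs (4 of them G-T), at chr11:70941683-70941705 on the plus strand. The loop was closed by a G-T pair in Gga3 and a T-A pair in Rabep1, unlike the C-G pair of Ap1g1 and of the core. A stem of at least 9 pairs was found in 5.78% of all tested UTRs. Such stems also stood in genes that did not pass the test: Ap4e1 had one of 11 pairs and Ap3m1 one of 9, with log2 fold changes over control IP of -0.92 (adjusted p = 0.599) and 0.02 (adjusted p = 0.987). The value of Ap4e1 rested on control IP library 1, as the control IP held 90.0, 21.3 and 20.7 CPM. With each library left out in turn it ran from -1.26 to 0.13.

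Over control IP, none of 24 tested AP-2 and endocytic partners was called (3.76% of all genes were called higher and 0.0% lower). At an unadjusted p under 0.05, 1 was higher and 0 lower, where 759 and 204 of all genes were. DESeq2 called none of the 24, and the replicate block called Synj1 higher (5.52% of all genes were). Of 15 tested AP-3 and lysosome-related organelle partners and 8 tested subunits of COPI, a coat related to the adaptors, none was called over control IP either. At an unadjusted p under 0.05, no AP-3 partner passed and 1 COPI subunit was lower, and DESeq2 called none. With library totals as scaling, 11 of the 24, 5 of the 15 and 6 of the 8 were called lower over control IP and none higher. Epn1, Itsn2 and Copb2 were among those lower. Of all 9567 genes, 3694 were called lower and 257 higher under that scaling. Over input, Epn1, the endocytic adaptor epsin 1, was higher (log2 fold change 1.26, standard error 0.29, adjusted p = 0.0151), and it was also higher in control IP over input (1.55, standard error 0.29, adjusted p = 0.0259). Itsn2, the scaffold intersectin 2, and Copb2, a COPI subunit, were lower over input (-1.11, adjusted p = 0.0110 and -1.24, adjusted p = 0.00863). In control IP over input their log2 fold changes were -1.04 and -1.10 (adjusted p = 0.0511 each), called lower by DESeq2 and with the replicate block, and over control IP they were -0.07 and -0.14 (adjusted p = 0.942 and 0.902). The call of Epn1 over input ended without Roquin IP library 1 or input library 1 or 2 (adjusted p = 0.0867, 0.0619 and 0.0523) and with library totals as scaling (0.238). In control IP it ended without Roquin IP library 2, control IP library 2 or any 1 input library (adjusted p from 0.0521 to 0.110) and with only the 6 libraries compared (0.0755). The call of Itsn2 ended without any 1 Roquin IP library (adjusted p from 0.0515 to 0.0649), and that of Copb2 without Roquin IP library 1 or 3 (0.0579 and 0.0557), while the log2 fold changes stayed between -1.08 and -1.13 for Itsn2 and at -1.14 and -1.18 for Copb2. The replicate block raised the number called lower over input from 1 to 5 of the AP-2 partners and from 1 to 3 of the COPI subunits, and that of all genes from 2.79% to 8.04%. In control IP over input it raised the AP-2 partners called lower from 0 to 3 and the COPI subunits from 0 to 1 (5.78% of all genes were), and the AP-3 partners called higher from 0 to 2 (6.65% were). There DESeq2 called 2, 1 and 1 (401 of all genes were called lower and 405 higher). Over input DESeq2 called 1 AP-2 partner higher (712 of all genes were), and 4 AP-2 partners and 2 COPI subunits lower (542 were).

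The 5 genes whose levels over the 9 libraries were most like those of Ap1g1 were Nfkbiz, Rybp, Rc3h2, Bmpr1a and Pik3ca. Likeness was the Euclidean distance between log2 CPM values centred on each gene's mean, which was 0.775 for Nfkbiz, 0.787 for Rybp, 0.864 for Rc3h2, 0.880 for Bmpr1a and 1.01 for Pik3ca, with 7.22 as the median of all genes. All points share their libraries and scaling, so the distances are a description. In the authors' deposited table Nfkbiz, Rc3h2 and Bmpr1a were in the class with a conserved element in the 3' UTR, and Rybp and Pik3ca were in the class without one, as was Ap1g1. Their ratios there were 32.66 for Nfkbiz, 44.17 for Rc3h2, 26.06 for Bmpr1a, 21.64 for Rybp and 21.70 for Pik3ca.

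The libraries differed in depth and make-up. Totals ran from 1799390 to 12975767 reads, with all input libraries at 2122288 or fewer. Tnf took 17.6 to 27.2% of the reads in the Roquin IP and at most 0.516% elsewhere, and Lars2 took 15.0 to 41.5% over all libraries. All 8 macrophage markers in the table had reads in each group, with a summed level of 531 to 1304 CPM per library. By edgeR none of the 8 was called in any of the 3 comparisons. At an unadjusted p under 0.05, 1 was higher over control IP (759 of all genes were). In control IP over input 3 were lower at that p (912 of all genes were), and DESeq2 called Cd68 lower (401 were). The replicate block called 3 lower in control IP over input, Cd68, Itgam and Mpeg1 (5.78% of all genes were). It called 1 lower in Roquin IP over input, Itgam (8.04% were). The markers of T cells, B cells, fibroblasts, epithelial and endothelial cells summed to at most 1.18 CPM per list and library. The sources used here do not say whether counting used the strand. Exons on the opposite strand overlapped those of Ap1g1 (1435 bases, Gm17344), Ap1g2 (412, Thtpa and Gm20687), Ap2a1 (720, Fuz), Gga3 (127, Mrps7), Rabep1 (48, Nup88) and Ap3m1 (2090, Vcl), so reads of such pairs cannot be told apart.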

How the data were processed

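The deposited file was 1 table of raw counts, reads of each gene in each of the 9 libraries, per the file headers. The authors' ratio of Roquin IP to control IP is headed as log2 in the deposited table, but none of its values was negative and it was read as a linear ratio. The authors' p-value beside it is quoted here for Ap1s3 alone, though the deposited table holds one for other genes too, Gga3 and Rabep1 included. No source says if it is adjusted. A text column held the authors' predicted class of decay element. Tools named per the submitters' processing notes were CASAVA 1.8.2, BWA and DESeq 1.8.3. Genome build, annotation and use of strand: not given in the sources used here. A further 7480 rows without a symbol or value were not used.

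Counts were fitted with edgeR 4.0.16 in R 4.3.3 (TMM factors, glmQLFit and glmQLFTest, 9 libraries in 1 fit, group as the term). The 9567 genes tested passed filterByExpr (minimum count 10), and calls had a Benjamini-Hochberg adjusted p under 0.05 over all of them. The common biological coefficient of variation was 0.35. A level of 1 CPM stood for 2.02 to 11.7 reads. The fitting was tested on simulated data with the common spread for every gene, and the pass rule covered only strongly raised genes. It says nothing of how well smaller changes are found. Counting error is only part of the spread between libraries. No pair of libraries within a group was a duplicate (chi-square per degree of freedom 13.9 to 117). Pairs across groups were not compared in this way.

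Libraries of the same number deviated together (correlation across genes of deviations from group means 0.146 to 0.537 in every pair). The fit reported had group as its only term and did not use this pairing. An alternative fit with the replicate number as a block is given where it changed a call. Other alternatives were RLE size factors, library totals alone, no filter, DESeq2 1.42.0, only the 6 libraries compared, leaving out each library, another gene length and other annotated UTRs. The members and lists were chosen with earlier results of these data known. Genes named are the 10 members, the other subunits and clathrin chains, partners called in any comparison (up to 8 per comparison), the 5 genes most like Ap1g1 and 4 reference genes. M6pr, Synj1, Ap4e1 and the calls of the replicate block were named after their values were seen. Vamp7 had no match. In the table Ap5s1 and Ap5m1 stand under older symbols.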

Additional observations from a re-analysis of the deposited data

How the results depend on the processing

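With library totals in place of TMM factors, 8 of the 10 adaptor genes were called lower in Roquin IP over control IP and 7 over input, against 0 in each with TMM, and the log2 fold change of Ap1g1 was 4.15 over control IP and 4.18 over input. That scaling moved the median of all genes from -0.12 to -0.96 over control IP and from -0.01 to -0.76 over input. Under it 3694 of all 9567 genes were called lower over control IP and 2659 over input. With the replicate block, 1 gene, Ap3b1, was called lower over input and 1, again Ap3b1, in control IP over input, and the block changed no other call among the 10. Leaving out each library in turn moved the log2 fold change of Ap1g1 from 4.76 to 5.16 over control IP, 4.70 to 5.10 over input and -0.20 to 0.03 in control IP over input. No alternative reversed a direction that had been called. Of the counts of members called and the values of Ap1g1, 129 stayed the same over the alternatives and 6 moved, all given above. Calls over all genes in control IP over input moved by more than 1.5 times under several alternatives, with 78 higher and 29 lower in the fit reported, 405 and 401 by DESeq2, 636 and 553 with the block, 335 and 229 without the filter, 2 and 1 with only the 6 libraries compared, and 0 and 0 without input library 1 or without input library 2. The input libraries, with the fewest reads, limit what can be said of Ap1g2, which had 33 to 94 reads in each.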
